A study of Mus musculus with 6 samples.

Results

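Gas5 is a noncoding host gene of box C/D small nucleolar RNAs (snoRNAs), and Snord47 is a snoRNA encoded in its introns. These 2 rows, found by symbol, were read from count tables that list 23420 genes in each of 6 small RNA libraries of NIH 3T3 cells, an immortalised mouse fibroblast line. All cells had been transfected with the plasmid pEGFP-NXF3, which encodes the nuclear export factor NXF3 fused to a green fluorescent protein. Input libraries (n = 3) were made from RNA taken with no antibody, and NXF3 pulldown libraries (n = 3) from RNA immunoprecipitated with an anti-GFP antibody; the labels speak of separate experiments. A pulldown without the fusion protein was not analysed here, so a row's share of the recovered RNA is set against its share of the starting RNA. The sources used here do not name the promoter that drives the fusion.

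Box C/D snoRNAs guide the ribose methylation of ribosomal RNA and other RNAs in the nucleolus, in particles with fibrillarin, Nop56, Nop58 and Snu13. In mammals most are cut out of introns after splicing of a host transcript, and the snoRNP proteins protect their ends while the rest of the intron is degraded. Gas5 (growth arrest-specific 5) was named for a transcript that accumulates in growth-arrested fibroblasts. Its spliced exons carry no long conserved reading frame, belong to the terminal oligopyrimidine class of transcripts and are turned over by nonsense-mediated decay, while the intronic snoRNAs are stable.

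In the GENCODE M21 models of mouse build GRCm38, Gas5 (ENSMUSG00000053332.13) lay at chr1:161034422-161038539 on the plus strand, a span of 4118 nt. The counting itself was made on build mm9, so these positions describe the gene and not the authors' features. The spliced model with the most exons, Gas5-224, had 12 exons of 28 to 81 nt and a mature length of 502 nt. Inside the gene were 10 snoRNA models at 9 separate loci, each locus in an intron of its own in Gas5-224. Snord47 (ENSMUSG00000064968.1, chr1:161038082-161038158, plus strand, 77 nt) lay in intron 10, 66 nt before the next exon. The median distance from a snoRNA model to the next exon was 73.5 nt (65 to 314 nt).

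**Figure D1:**
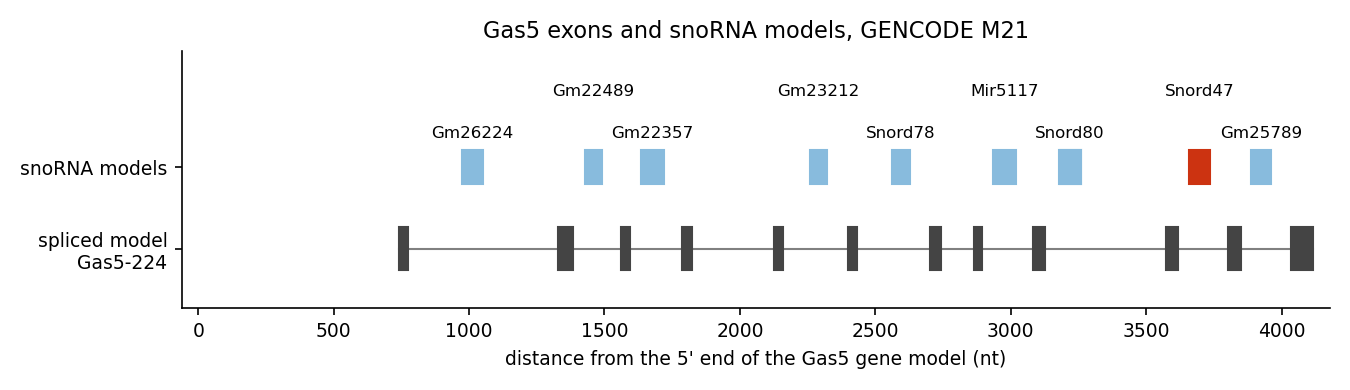
Exons of the spliced model Gas5-224 (dark boxes) and the snoRNA models inside Gas5 (blue, Snord47 in red), drawn to scale against the distance in nt from the 5′ end of the Gas5 gene model in GENCODE M21. Each of the 9 snoRNA loci sits between exons, and Snord47 is the one before the last.

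The snoRNAs of the gene are shown by 4 sequences: Snord47, which had reads under its own symbol, Snord78 and Snord80 (the longer of its models), which were not analysed here as rows of their own, and the snoRNA model called Mir5117, a symbol that has a row. Sequences are GENCODE M21 transcripts (GRCm38, plus strand), 5′ to 3′, as DNA letters. Capitals mark the first TGATGA, the core of the C box, where it starts within 15 nt of the 5′ end, and the last CTGA, the D box.
Snord47: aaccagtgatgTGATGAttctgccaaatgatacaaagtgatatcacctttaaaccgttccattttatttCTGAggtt
Snord78: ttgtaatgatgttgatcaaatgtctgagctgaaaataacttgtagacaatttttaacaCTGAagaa
Snord80: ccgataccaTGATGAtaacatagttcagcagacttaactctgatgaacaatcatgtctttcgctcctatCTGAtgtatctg
Mir5117: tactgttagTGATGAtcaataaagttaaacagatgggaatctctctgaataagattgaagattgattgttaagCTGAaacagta
By these exact letters both boxes were found in 8 of the 10 models, and only the D box in Snord78 and Gm22489. Forms of the C box that differ in a letter were not searched for, so these models may still have one. The search used the transcript strand, and the 2 motifs overlap wherever CTGATGA occurs. Of all 303 GENCODE M21 snoRNA transcripts of 60 to 84 nt, 73.6% had the C box letters and 87.8% the D box letters in the same windows. Both were found in 69.0% of them.

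Of 10 Gas5 intronic snoRNAs listed by name, 1 was analysed here under its own symbol, Snord47. Mir5117, whose model lies in intron 8, had a row with 0 reads in every library, against 375028 reads of Snord47 over the 6 libraries. A count of 0 allows up to 3 reads per library in that row. Reads of the same snoRNA counted elsewhere would not show in it, so the 0 does not measure the snoRNA itself. None of the 5 spliced Gas5 models has an exon over any snoRNA locus, while each of the 10 snoRNA models is covered whole by an exon of at least 1 of the 20 retained-intron Gas5 models. Which of these models the authors' annotation held the sources used here do not say, so how far the Gas5 row holds reads of intronic snoRNAs was not tested. Reads the counter could not place between genes, over the whole genome, numbered 6558 in pulldown 1 to 83312 in pulldown 2. They came to 0.506 to 0.777 times the Snord47 count and to 3.80% to 7.73% of the Gas5 count of the same library, so they were fewer than the reads of either row in every library. Zbtb37, a gene on the other strand that overlaps the 5′ end of the Gas5 span by 428 nt, had 11 reads in all.

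The libraries held 769570 (pulldown 1) to 6946284 (pulldown 2) gene counts, of which 83.4% to 86.3% fell on the 10 rows with the most reads. Exact 95% Clopper-Pearson intervals of the shares given here reached at most 0.0934 percentage points on either side, and they cover counting error only, since PCR copies without molecular identifiers are not independent molecules. The products cut from the gel were 30 to 375 nt long, so a spliced Gas5 transcript of 502 nt could be seen only as fragments. That is the length of the model with the most exons. The spliced Gas5 models ran from 346 to 665 nt, so the shortest lay below the upper limit of the cut. All 10 fibroblast markers had reads in every library (535 to 1439 reads summed), all 4 epithelial markers were at 0 in every library, and adipocyte and leukocyte markers had at most 1 read per library.

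Gas5 was one of the most abundant rows of every library. It held 642404, 404487 and 460051 reads in inputs 1 to 3, or 16.8%, 21.5% and 11.7% of gene counts. In pulldowns 1 to 3 it held 172768, 1123036 and 599351 reads, or 22.4%, 16.2% and 18.3%. Input 3 was the lowest and pulldown 1 the highest, and the other pulldown libraries lay within the input range. Gas5 ranked first in inputs 1 and 2 and in pulldowns 1 and 3, behind Snord43 alone in pulldown 2, and at place 4 in input 3, behind Snord12, Snord49a and Snord55.

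Snord47 held 62011, 34762 and 66169 reads in inputs 1 to 3, or 1.62%, 1.85% and 1.68% of gene counts. In pulldowns 1 to 3 it held 8436, 139418 and 64232 reads, or 1.10%, 2.01% and 1.96%. The 3 inputs lay close together, pulldown 1 lay below all of them and pulldowns 2 and 3 lay above all of them. Snord47 ranked between place 9 and place 13 among all rows, and between 8 and 11 among Snord rows, of whose summed counts it made up 1.58% to 2.55%. Both rows together took 13.4% to 23.5% of a library.

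**Figure D2:**
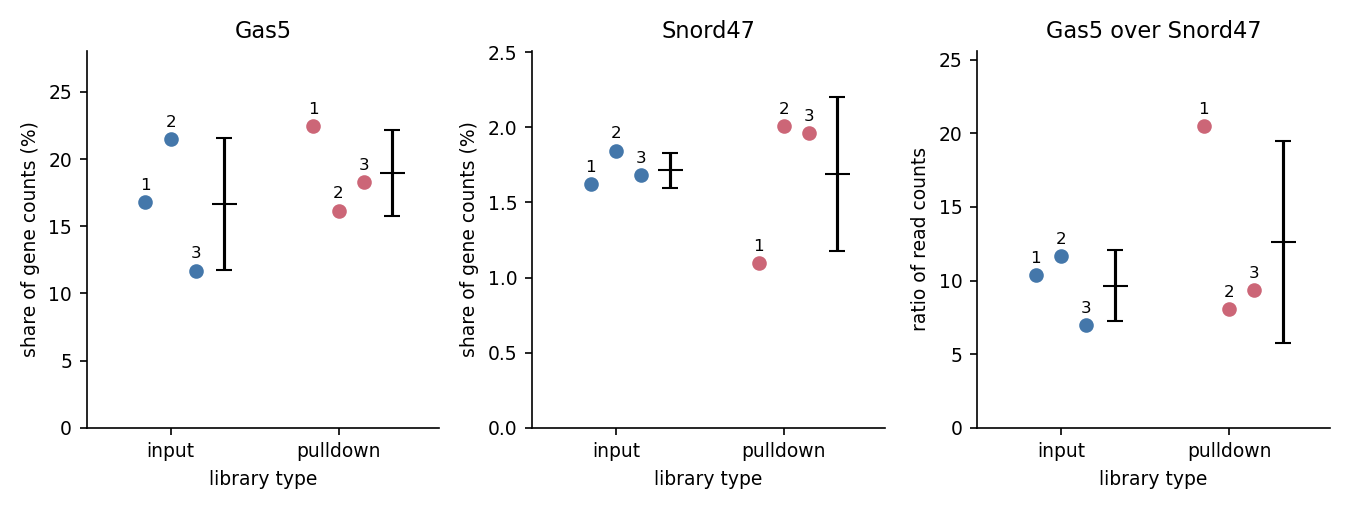
Share of gene counts (%) of Gas5 and of Snord47, and the ratio of their read counts, in each library; numbers beside the points are replicate numbers, and bars give the mean ± SD (n = 3 each). Gas5 ranges overlap between input and pulldown, and pulldown 1 is the lowest library for Snord47 and the highest for the ratio, at 20.5.

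Neither share differed between the groups beyond the spread between libraries. Gas5 took 16.6% ± 4.89 of input and 19.0% ± 3.20 of pulldown counts (SD, n = 3 each), a difference of 2.32 percentage points (exact two-sided permutation p = 0.5, where 3 against 3 allows no p below 0.1). It was higher in the pulldown in 2 of 3 same-numbered comparisons and lower in pulldown 2 than in input 2. Without input 3 the difference was -0.155 points. Snord47 took 1.72% ± 0.116 of input and 1.69% ± 0.513 of pulldown counts, a difference of -0.0277 points (exact two-sided permutation p = 1, n = 3 each). It was higher in the pulldown in 2 of 3 same-numbered comparisons, and without pulldown 1 the difference was 0.268 points.

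The test across all genes gave no call for either row. It was edgeR's quasi-likelihood test on the 1852 genes that passed its filter on low counts, with TMM scaling, which sets each library by the bulk of its genes and not by its total. Of these genes 0.054% were called in either direction at an adjusted p under 0.05, 1 gene, 2900060B14Rik, which was lower; of the 2 members 0 were called. Gas5 stood at 222609, 202113 and 102462 CPM (counts scaled to a common library size after TMM) in inputs 1 to 3. Pulldowns 1 to 3 stood at 115152, 265687 and 198194 CPM. On this scale pulldown 1 was no longer the highest library but lay near input 3 at the low end. The log2 fold of pulldown over input was 0.14 with an SE of 0.70 and a 95% interval from -1.36 to 1.64 (edgeR, adjusted p = 0.995).

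Snord47 stood at 21488, 17370 and 14737 CPM in inputs 1 to 3. Pulldowns 1 to 3 stood at 5623, 32983 and 21240 CPM. The pulldown libraries enclosed the whole input range, and 10.4% of all tested genes had groups that did not overlap. The log2 fold came to 0.16 with an SE of 0.69 and a 95% interval from -1.34 to 1.66 (edgeR, adjusted p = 0.995). Both standard errors were large in this fit, where the median SE of all tested genes was 0.37. That of Gas5 lay at or above those of 98.4% of tested genes, and that of Snord47 at or above those of 98.3%. A change smaller than these intervals could not be detected for either row in this fit. The SE depended on the settings. With all libraries it ran from 0.24 (total-count scaling) to 1.29 (replicate block) for Gas5. For Snord47 it ran from 0.34 to 0.99 under the same 2 settings. The sign of both folds turned when pulldown 2 was left out, to -0.18 for Gas5 and -0.43 for Snord47, and that of Snord47 was -0.02 with total-count scaling.

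**Figure D3:**
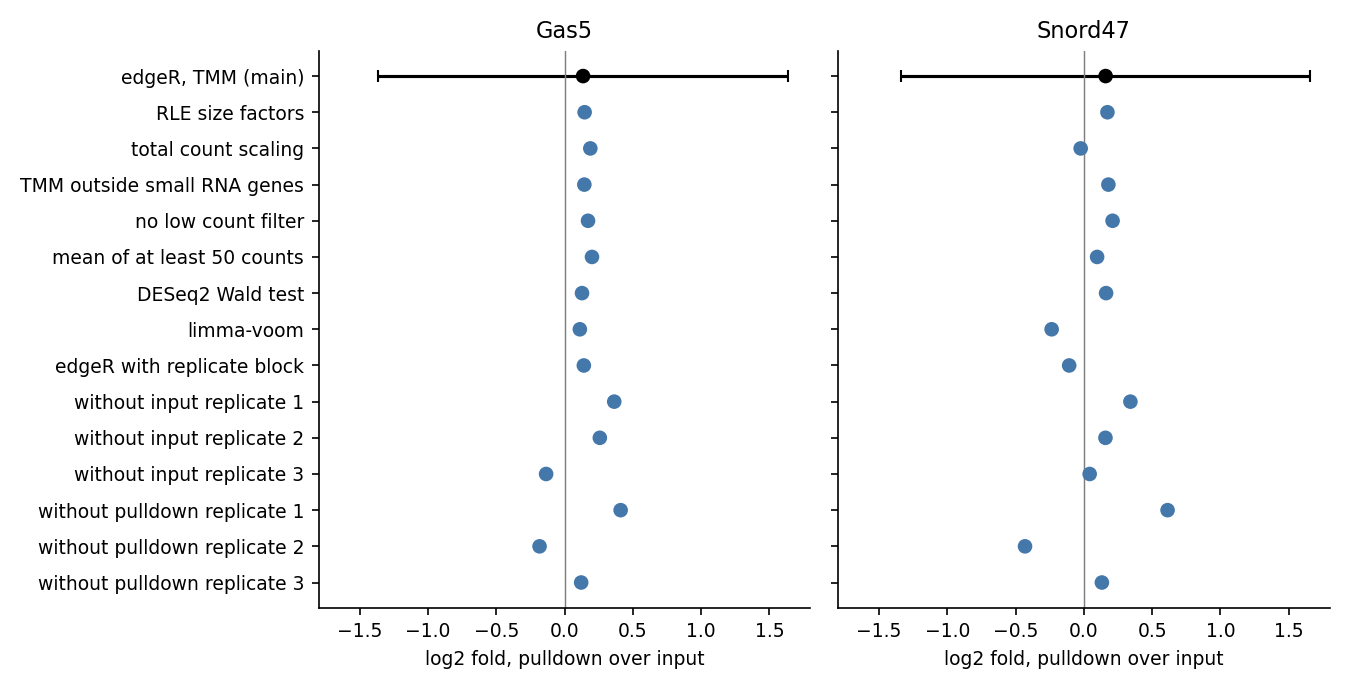
Log2 fold of pulldown over input for Gas5 and Snord47 (x axis) under the main edgeR test (black, with its 95% interval) and under each alternative (blue, one per line). Under all settings the values stay within the main interval, and they fall on both sides of 0 for each row.

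The Gas5 row held more reads than the Snord47 row in every library. The ratio of read counts was 10.4, 11.6 and 6.95 in inputs 1 to 3. In pulldowns 1 to 3 it was 20.5, 8.06 and 9.33. Counting error was small beside this spread; the exact 95% interval was 20.04 to 20.93 in pulldown 1 and 6.90 to 7.01 in input 3. Pulldown 1 stood above all other libraries, and pulldowns 2 and 3 lay within the input range. On the log2 scale the inputs averaged 3.24 ± 0.39 and the pulldowns 3.53 ± 0.72 (SD, n = 3 each), a difference of 0.29 that was smaller than the spread (exact two-sided permutation p = 0.7). Without pulldown 1, the shallowest library, the difference was -0.12.

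Per length, the order of the 2 rows depended on which Gas5 length was taken. Snord47 had 110 to 1811 reads per nt of its 77 nt, depending on the library. Set against Gas5 reads per nt of the whole gene span, Snord47 was 2.61 to 7.69 times as high. Set against Gas5 reads per nt of the spliced model of 502 nt, it was 0.318 to 0.938 times as high. The spliced Gas5 models ran from 346 to 665 nt. A longer model would raise this ratio and a shorter one would lower it, and neither was computed.

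As shares of the libraries, the 2 rows showed no joint rise and fall that the test could detect. Over the 6 libraries the log2 shares had a Pearson r of -0.36 (exact permutation p = 0.44) and a Spearman rho of -0.37 (exact permutation p = 0.497). The relation was computed under 12 settings, and Benjamini-Hochberg adjustment over their 24 p-values gave 0.722 for both coefficients. Without the 2 libraries farthest from the Gas5 median, pulldown 1 and input 3, r was 0.03 (exact permutation p = 0.958, n = 4), and without pulldown 1 alone it was 0.41. Taken as deviations from the group means, r was -0.34 (exact permutation p = 0.533). Shares of one total are not free of each other. With both rows left out of the total, r was -0.16 (exact permutation p = 0.744). Input and pulldown libraries may share an experiment, so the 6 points may not be independent.

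On TMM-scaled log2 CPM the same reads gave the opposite sign, with r = 0.79 (exact permutation p = 0.0306, n = 6) and rho = 0.89 (exact permutation p = 0.0333). After that adjustment neither p stayed under 0.05 (adjusted p = 0.4 for both, exact permutation). The adjusted p-values came from re-runs of the same relation on other scales and on subsets of the same libraries. Their size therefore depends on how many settings were added, and the adjustment cannot decide whether the rows covary on this scale. A log2 CPM is the log2 share less the log2 TMM factor of the library, the same for both rows, and this factor was lowest in pulldown 2 (0.609) and highest in pulldown 1 (1.95). With all libraries the sign of the covariation of host and snoRNA row thus differed between the scales. On log2 shares it also turned without pulldown 1 (r = 0.41), with no change of scale.

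**Figure D4:**
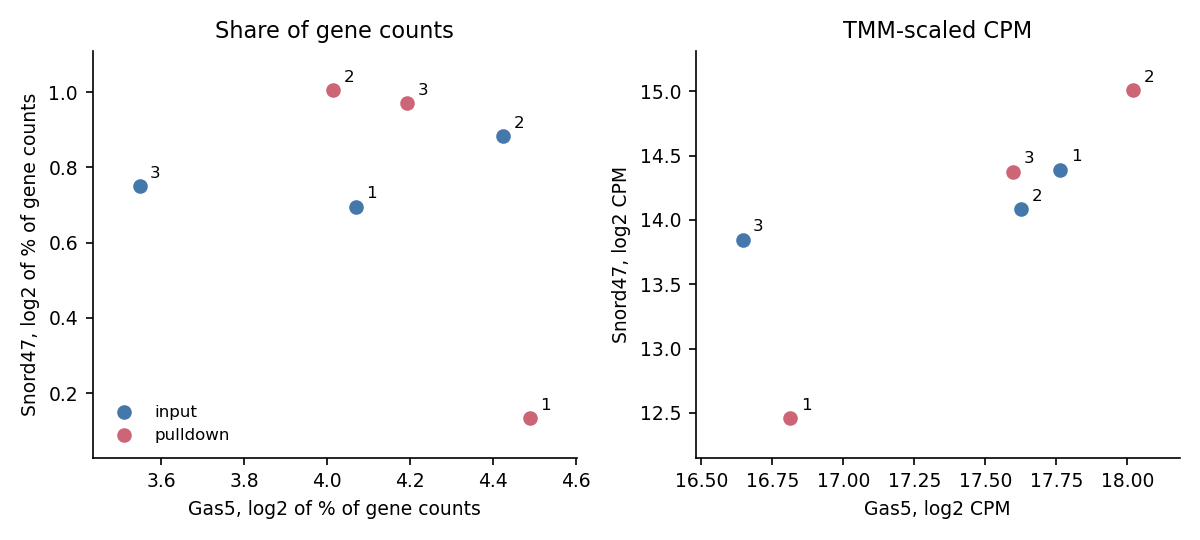
Snord47 against Gas5 in the 6 libraries, as log2 of the percentage of gene counts (left) and as log2 CPM with TMM scaling (right); blue points are input, red points pulldown, and numbers are replicate numbers. On the left pulldown 1 lies at the lower right (r = -0.36), on the right at the lower left (r = 0.79).

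The rows most like each member were named by the Pearson r of log2 CPM over the 6 libraries, among 211 other tested genes that averaged 50 counts or more. All these values share the TMM factors, and they are given as a description. Nearest to Gas5 were Eif4g1, an mRNA for a translation initiation factor (r = 0.98), Snord104 (0.94), AF357426, a snoRNA of the imprinted Dlk1-Dio3 region (0.93), Snord52 (0.93) and Snord90 (0.91). Nearest to Snord47 were Mir677 (r = 0.998), Snord92 (0.97), Snord83b (0.97), Snord45b (0.97) and Snord38a (0.96). Eif4g1 is itself a host gene, with the Snord66 model inside it in GENCODE M21. Snord rows made up 18 of the 20 nearest rows of Gas5, and 60 of the 211 rows compared with it. They made up 16 of the 20 nearest rows of Snord47, and 59 of the 211 compared with it. The median r with Snord rows was 0.69 for Gas5 and 0.85 for Snord47, against 0.26 and 0.41 with all rows compared, Snord rows included. With each other, at r = 0.79, the members were not near the top. Snord47 came at place 26 for Gas5, and Gas5 at place 57 for Snord47.

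The Gas5 row held far more reads than the rows of other snoRNA host genes. Of 12 other host genes listed, 10 had a row under the listed symbol. Their reads summed to between 34 (input 2) and 116 (pulldown 2) per library. The highest count among them was 58 reads of Snhg1, host of the U22 snoRNA among others, in pulldown 2. Gas5 exceeded their sum 4547-fold (pulldown 1) to 12848-fold (input 1). Zfas1, listed as host of Snord12, had no row by that symbol. The row 1500012F01Rik, whose gene holds the Snord12 model, had 35 reads in all and was not in these sums.

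The same held for host and snoRNA rows side by side. In 30 other listed pairs of a host gene and a snoRNA of its introns, of which 29 lay inside the host gene in GENCODE M21 (Rnf149 and Snord89 did not), the median ratio of host reads to snoRNA reads over all libraries was 0.0133, against 9.07 for Gas5 and Snord47. The host exceeded the snoRNA in no other listed pair but Rpl12 and Snora65, in 1 library. A wider set, chosen after seeing the data, took the Snord and Snora rows that averaged 10 counts or more and whose GENCODE M21 model, matched by symbol or RefSeq synonym, lay inside another row's gene on the same strand. It held 77 other pairs with a median ratio of 0.00601, and in 65 of them the snoRNA had over 10 times the reads of its host. The cut fell on the snoRNA rows alone, so pairs with fewer snoRNA reads, whose ratios may be higher, are not in this set. The host row was higher in all 6 libraries for 2 other pairs, nucleolin (Ncl) with Snora75 at a ratio of 3.87 and importin 7 (Ipo7) with Snora23 at 2.58. No other host of these sets reached more than 243 reads in a library, and 172768 was the lowest Gas5 count.

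Per length the Gas5 row was again the highest of these hosts. Per kb of all annotated exons, Gas5 had 45949 to 298680 reads in a library, and the highest other host, Rps3a1, had 234. This length joined the exons of all models of a gene, retained-intron models included. For Gas5 it came to 3760 nt and took in the snoRNA loci. Host reads per nt over snoRNA reads per nt gave 0.186 for Gas5 and Snord47, and 0.0505 for the next pair, Ncl and Snora75; the median of the 77 other pairs was 0.00014. On the spliced Gas5 model of 502 nt the order was the other way, with Snord47 at 0.318 to 0.938 times the Gas5 reads per nt. Spliced lengths were not used for the other hosts. These pairs are a description of the libraries, with no test.

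**Figure D5:**
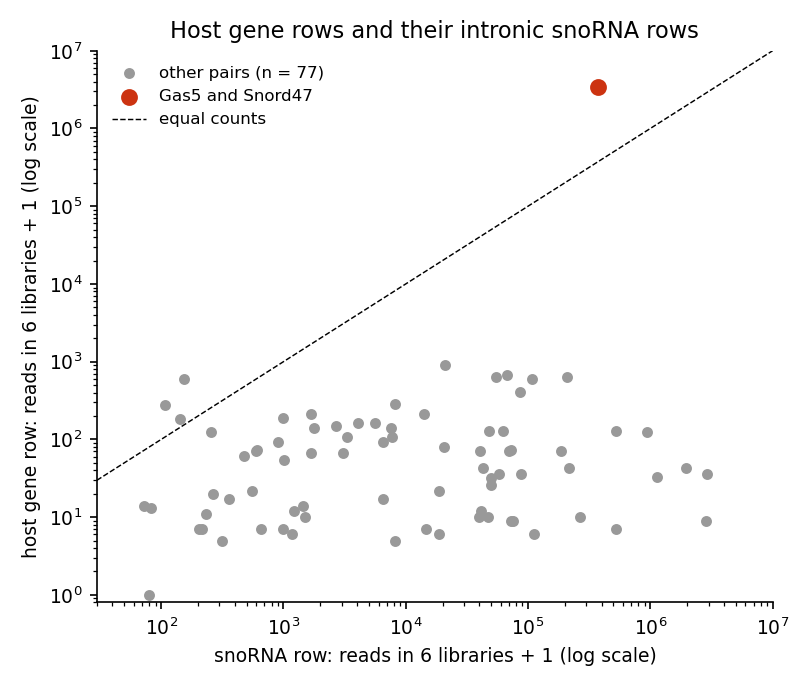
Reads of the host gene row against reads of its intronic snoRNA row, summed over the 6 libraries plus 1, both axes logarithmic and not scaled by length; grey points are 77 other annotated pairs, the red point is Gas5 and Snord47, and the dashed line marks equal counts. The red point lies above the line at 3402097 Gas5 reads, while other hosts stay under 1000 reads.

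Between input and pulldown, none of the other host genes was called. Of 13 listed host genes, Gas5 included, 11 had a row under the listed symbol and 5 could be tested. Of these 5, 0 were called higher and 0 lower, and 3 log2 folds were positive and 2 negative. Their median of 0.14 was the fold of Gas5 itself, against a median of -0.0039 over all tested genes. The log2 fold was 1.18 ± 0.36 (SE) for Snhg1 (edgeR, adjusted p = 0.555) and 1.01 ± 0.44 (SE) for Rpl13a, a ribosomal protein gene and host (edgeR, adjusted p = 0.825). Snhg5 and Snhg7, both noncoding hosts, had -0.35 (SE 0.43) and -0.57 (SE 0.61). Of the genes for core box C/D proteins, Nop56 (log2 fold -0.25, SE 0.46) and Nop58 (-0.15, SE 0.38) had enough reads to test and neither was called, and Fbl, the fibrillarin gene, had no read in any library. These mRNA rows rest on few fragments, at most 36 reads of Nop56 in a library.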

How the data were processed

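Raw read counts per gene symbol were deposited by the authors as 1 table per library. Per the submitters' processing notes, Bowtie, Partek and build mm9 were used; per the file headers and names, rRNA reads had been removed and reads counted with HTSeq-count. Rn45s, the row of a ribosomal RNA precursor, was still in the gene counts used for the shares. It held 2.05%, 2.87% and 2.95% of them in inputs 1 to 3 and 2.19% in pulldown 1. In pulldowns 2 and 3 it was not among the 10 rows with the most reads. The sources used here do not give versions, counting mode, strand setting, annotation or the placing of multiply aligned reads. The 5 summary lines of the counter stayed out of library sizes and tests; genes held 22.2% to 35.6% of all reads listed. Libraries had been amplified with 14 PCR cycles. No 2 libraries were identical or within sampling noise.

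The whole table was fitted with edgeR 4.0.16 in R 4.3.3 (TMM, filterByExpr with a minimum count of 10, quasi-likelihood F test, Benjamini-Hochberg adjustment, threshold 0.05) and the 2 rows read from it. CPM are after TMM. The script was tested on simulated data. Shares, the count ratio and the correlation were tested by exact permutation over libraries. Alternatives were RLE factors, total-count scaling, TMM outside small RNA genes, other count filters, DESeq2 1.42.0, limma-voom (limma 3.58.1), a replicate block, other denominators and scales, and leaving out each library. Gene models and snoRNA sequences came from GENCODE M21. Named genes were the 2 members, listed Gas5 intron snoRNAs, host genes and box C/D protein genes with a row, the 5 rows most correlated with each member, and the host pairs. The members and lists were chosen with earlier results of these data known.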

Additional observations from a re-analysis of the deposited data

How the results depend on the processing

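Neither row was called under any of the 14 alternatives to the test across all genes (adjusted p 0.918 to 1.00 by edgeR, DESeq2 or limma-voom), and no share or ratio reached the smallest exact p its design allows. Signs were less stable. The log2 fold of Gas5 was 0.11 to 0.20 with all libraries and -0.18 to 0.41 when leaving out 1 library; it turned negative without pulldown 2 and without input 3 (-0.14). The log2 fold of Snord47 was -0.023 with total-count scaling, -0.24 with limma-voom, -0.11 with the replicate block and -0.43 to 0.61 when leaving out 1 library. The difference in Gas5 share ran from -0.155 to 4.73 points without single libraries. That in Snord47 share ran from -0.187 to 0.268, and was 0.0434 points of all reads and 0.0041 points of gene counts without both rows. The difference in log2 ratio ran from -0.12 to 0.55. The correlation ran from -0.62 to 0.41 without single libraries, and was 0.79 on log2 CPM and 0.028 without the 2 farthest libraries. The cause of these reversals was not tested, and the common TMM factors in log2 CPM were only described.

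The number of genes called over the whole table (1) became 0 with total-count scaling, 2 with TMM outside small RNA genes (with Hist1h4c), 4 with DESeq2 and 4 with the replicate block (each with Hist1h4c, Rnu12 and Snord33), and 16 without a filter. Leaving out 1 library gave 0 (without pulldown 2) to 11 (without pulldown 1); without input 2 it gave 2. Same-numbered libraries shared only a number: their deviations from the group means correlated at 0.03, 0.07 and 0.14, each library best with its own number, which is a hint from the data and not the design. Of the 11 host genes with a row under the listed symbol, 5 had enough reads to pass the filter of the main test. For Gas5 and Snord47 counting error was far below the spread between libraries.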

Other observations

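The spread of the 2 rows within a group changed with the libraries taken. On log2 shares, Gas5 had an SD of 0.44 between inputs and of 0.24 between pulldowns, and Snord47 one of 0.10 between inputs and of 0.49 between pulldowns (n = 3 each). Without input 3 the Gas5 SD between inputs was 0.25, and without input 1 it was 0.62. Without pulldown 1 the Snord47 SD between pulldowns was 0.024, and without pulldown 3 it was 0.62. Leaving out the most distant of 3 values always lowers their SD, so the lower values were fixed by that choice. On log2 CPM, Gas5 had an SD of 0.61 in both groups, and Snord47 one of 0.27 between inputs and of 1.33 between pulldowns, or 0.45 without pulldown 1. Among the 44 Snord rows that averaged 1000 counts or more, the median SD of the log2 share was 0.40 between inputs and 0.41 between pulldowns. Over all libraries the log2 share of Gas5 spanned 0.94 and that of Snord47 0.87, against a median of 1.27 for these Snord rows. Differences in spread between groups of 3 libraries were not tested.

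Reads outside annotated features outnumbered Gas5 reads in every library, at 3.56 to 7.52 times the Gas5 count. Which positions those reads came from was not analysed here.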
